A study of Canis lupus familiaris with 5 samples.

Results

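Clotting, clot removal and complement were followed through 36 listed genes in single-nucleus RNA libraries of canine cephalic vein, and 35 of the 36 matched a feature of the count matrices by symbol. CD46 was not analysed here. By role, 8 of the 35 genes are antithrombotic, 6 are prothrombotic and 2 encode protease-activated receptors. Another 6 act in plasminogen activation, 1 encodes an inhibitor of plasminogen activators, and 12 belong to complement as 6 components, 4 regulators and 2 receptors. The list was drawn up by known function, but it was chosen with earlier results of these data known.

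The study harvested cephalic veins of 25 kg mongrel dogs, and the 5 nuclear libraries came from 2 dogs labelled male. One library was a grafted vein of dog 1, distended, placed as a carotid bypass and taken 24 h later. The distended group held 1 vein each of dogs 1 and 2, filled with saline containing 60 mg papaverine, a vasodilator, and 43 mg bivalirudin, a direct thrombin inhibitor, over about 30 min of distension and harvest. The control group was an undistended cephalic segment of each of the same dogs. Dog 1 therefore gave all 3 conditions and dog 2 gave distended and control vein. Bivalirudin was also infused systemically before the graft was sewn in, so the graft had met a thrombin inhibitor by both routes. Tissue was snap-frozen and nuclei were isolated. The RNA counted is thus nuclear RNA, not protein or plasma factors.

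Tissue factor exposed at an injured vessel wall binds factor VIIa and starts coagulation, which ends in thrombin and fibrin. Endothelium holds thrombin in check through thrombomodulin, the endothelial protein C receptor and tissue factor pathway inhibitor, and it holds platelets in check through prostacyclin and through breakdown of extracellular ADP. Plasmin, made from plasminogen by tissue-type and urokinase-type activators, dissolves fibrin. Complement runs in parallel as a protease cascade whose terminal components form a membrane pore, and host cells carry surface proteins that block it.

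Depth and composition differed between libraries. They held 410604 to 11302558 UMIs (unique molecular identifiers, each counting 1 captured RNA molecule), and the median nucleus had 1563 detected genes in the graft and 242 to 446 in the other 4 libraries. Between 2.98% and 70.4% of a library's UMIs fell on 4 features, LOC119877772 to LOC119877775, with the lowest share in the graft. Levels below are therefore counts per 1e+06 UMIs without those 4 features (CPM). Of 7391 barcodes, 6868 nuclei with at least 100 detected genes were kept. The graft gave 2705 of them, distended vein gave 2108 for dog 1 and 241 for dog 2, and control vein gave 773 and 1041. Only 5 barcodes were shared by any pair of libraries. Over whole veins, fibroblast markers summed to 1799 CPM in the graft, 11380 and 1298 CPM in the distended veins and 1187 and 6290 CPM in the control veins. Endothelial markers summed to 5402 CPM in the graft, 5471 and 6178 CPM in the distended veins and 11723 and 6581 CPM in the control veins. In whole-vein sums, fewer nuclei of a type and less RNA per nucleus cannot be told apart.

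The distended vein of dog 2 stood apart from its label. Of its 241 nuclei, 96 (39.8%, exact 95% interval 33.6 to 46.3%) lay in the 4 clusters in which more than 90% of nuclei came from the graft. Those clusters held 2058 of 2705 graft nuclei, 7 of 2108 nuclei of the distended vein of dog 1, 1 of 773 nuclei of the control vein of dog 1 and 10 of 1041 of dog 2. The comparisons with distended vein are therefore also given without this library.

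Clustering without the listed genes gave 15 clusters. Endothelial-like clusters held 970 graft nuclei, 522 and 48 distended nuclei and 640 and 472 control nuclei of dogs 1 and 2. Fibroblast-like clusters held 814 graft nuclei, 1212 and 52 distended nuclei and 56 and 387 control nuclei. Different clusters made up a class in different libraries. Graft nuclei filled cluster 11 of the endothelial-like class (969 of 970) and cluster 12 of the fibroblast-like class (812 of 814), while the control endothelial-like nuclei lay mostly in cluster 0 for dog 1 and in cluster 5 for dog 2. The distended vein of dog 2 had 38 of its 48 endothelial-like nuclei in cluster 11 and 48 of its 52 fibroblast-like nuclei in cluster 12. Its levels in these classes below thus come mostly from nuclei of graft-dominated clusters. A cluster in which leukocyte marker lists tied (cluster 7, 505 of 609 nuclei from the graft) was left unnamed and is called the leukocyte-marker cluster. In its graft nuclei endothelial and fibroblast markers reached 32.1% and 21.0% of their levels in the graft's own endothelial-like and fibroblast-like nuclei. Cluster 13 was also left unnamed and is called NPPC-led, after its leading gene with a symbol (243 of 254 nuclei from the graft, median 5454 UMIs per nucleus). Endothelial markers there reached 51.5% of their level in graft endothelial-like nuclei. Cluster 1, led by CST6, is small (14 nuclei, 11 of them from the control vein of dog 1) and was counted as endothelial-like. The HBM-led cluster 6 (174 nuclei) was named red cell-like and held 98 of the 241 nuclei of the distended vein of dog 2. In those 98 nuclei endothelial markers summed to 9369 CPM and red cell markers to 0 CPM. They held 75 of the 180 VWF UMIs and 7 of the 13 F8 UMIs of that vein, which its endothelial-like levels leave out.

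**Figure D1:**
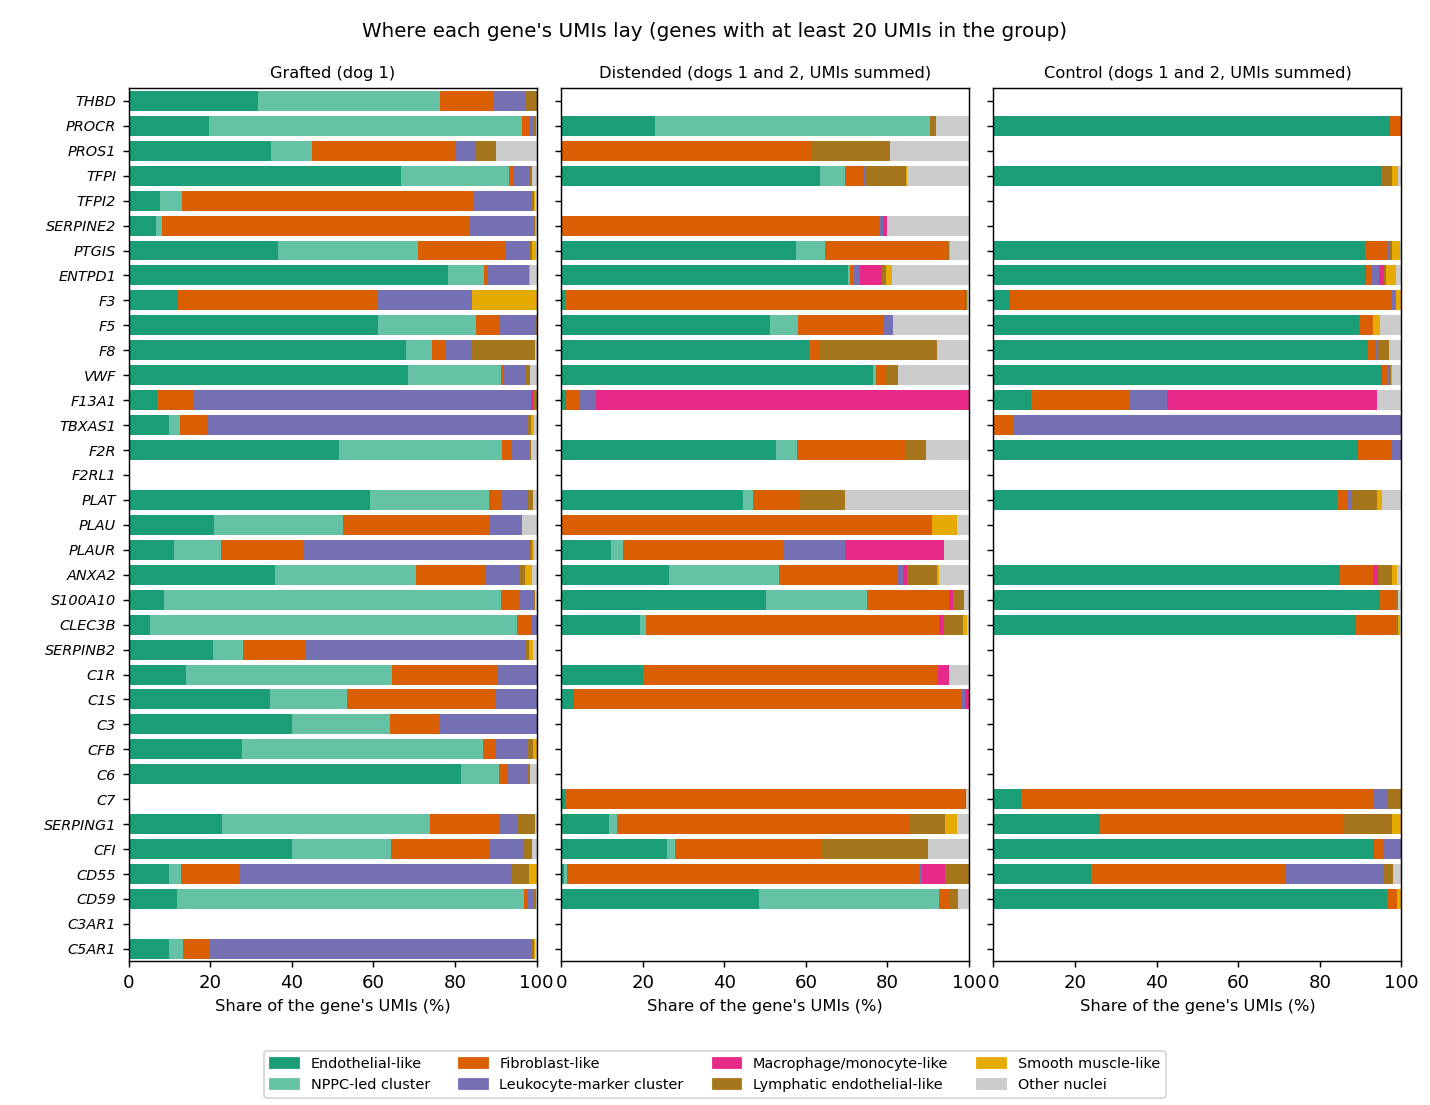
Share of each gene's UMIs (%, horizontal axis) held by each cell class or cluster (colours), in the graft, in the distended veins and in the control veins, with the UMIs of both dogs summed in the last pair of panels. Genes with under 20 UMIs in a group have no bar. In the graft, TFPI2 and SERPINE2 were mostly fibroblast-like, PLAUR, TBXAS1, C5AR1 and CD55 mostly in the leukocyte-marker cluster, and S100A10, CD59 and CLEC3B mostly in the NPPC-led cluster.

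In whole veins 31 of the 35 genes were abundant enough to be tested, and no gene of 13193 passed an adjusted p of 0.05 in any comparison (edgeR quasi-likelihood test, Benjamini-Hochberg adjustment over all genes), so the share called was 0% in either direction. At an unadjusted p under 0.05, 1173 genes passed for graft against control, 730 for graft against distended and 194 for distended against control, and DESeq2 called 121, 36 and 1 genes at its adjusted p. The count rested on single libraries. Without the distended vein of dog 1 it was 652 genes for graft against control, 6 for graft against distended and 219 for distended against control. Without the distended vein of dog 2 it was 602, 619 and 1 genes in the same order. Listed genes made up 4 of those passing higher (4.81% of all genes tested) and 4 lower (4.09%) for graft against control, 2 higher (2.97%) and 2 lower (2.56%) for graft against distended, and 2 higher (0.993%) and 0 lower (0.478%) for distended against control. Non-overlap of levels was common among all genes. The graft lay above both control veins for 12 of the 31 listed genes (47.9% of all genes tested) and below both for 9 (28.7%), so neither count departs far from the background. Against distended vein it lay above both for 12 (36.7% of all genes) and below both for 7 (25.1%), and distended lay above control for 3 (14.3%) and below it for 4 (9.16%). The median log2 fold change of the listed genes was -0.62 for graft against control, beside 0.13 over all genes.

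Within classes, some listed genes passed. Among endothelial-like nuclei 20 listed genes were tested, and for graft against control 0 were called higher (2.31% of 10341 genes) and 2 lower (1.77%). Graft against distended gave 0 higher (0.88%) and 1 lower (0.406%). Among fibroblast-like nuclei 16 were tested. For graft against control 1 was called higher (0.387% of 7237 genes) and 2 lower (1.67%), and for graft against distended 1 higher (0.884%) and 2 lower (1.73%). Distended against control gave 0 listed genes in either class, where 2 of 10341 genes (0.00967% in each direction) passed in endothelial-like nuclei and 0 of 7237 in fibroblast-like nuclei. The unadjusted counts of listed genes for distended against control were 0 in endothelial-like and 2 in fibroblast-like nuclei, beside 1.28% of genes higher and 1.27% lower in the first class and 0.871% higher and 0.249% lower in the second. DESeq2 called 0 genes for that contrast in both classes. At an unadjusted p under 0.05, graft against control gave 4 higher (8.79% of all genes) and 4 lower (8.36%) in endothelial-like nuclei, and 3 higher (4.26%) and 6 lower (7.53%) in fibroblast-like nuclei. Graft against distended gave 2 higher (4.93%) and 3 lower (4.39%), and 2 higher (4.85%) and 4 lower (7.32%), in the same order of classes. Levels in endothelial-like nuclei did not overlap for 8 genes higher (48.6% of all genes) and 5 lower (27.8%) against control, 8 higher (36.4%) and 6 lower (25.6%) against distended, and 1 higher (15.7%) and 2 lower (9.85%) for distended against control. In fibroblast-like nuclei these counts were 4 (49.2%) and 6 (20%), 4 (42.3%) and 5 (22.7%), and 3 (20.6%) and 2 (9.12%). These counts moved with the processing. In endothelial-like nuclei 422 genes were called for graft against control and 133 for graft against distended. Both counts were 0 when the NPPC-led and CST6-led clusters were counted together as endothelial-like, and 0 when nuclei were classed singly by their markers. In fibroblast-like nuclei 149 genes were called for graft against control, beside 70 without the control vein of dog 1, 3 without that of dog 2 and 8 with the dog as a block. The 189 genes called there for graft against distended became 1 without the distended vein of dog 1 and 1988 without that of dog 2. The graft is 1 library, so each test against it takes the spread from the distended and control veins and assumes that the graft would vary likewise. These p-values measure the spread between veins of 2 dogs.

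**Figure D2:**
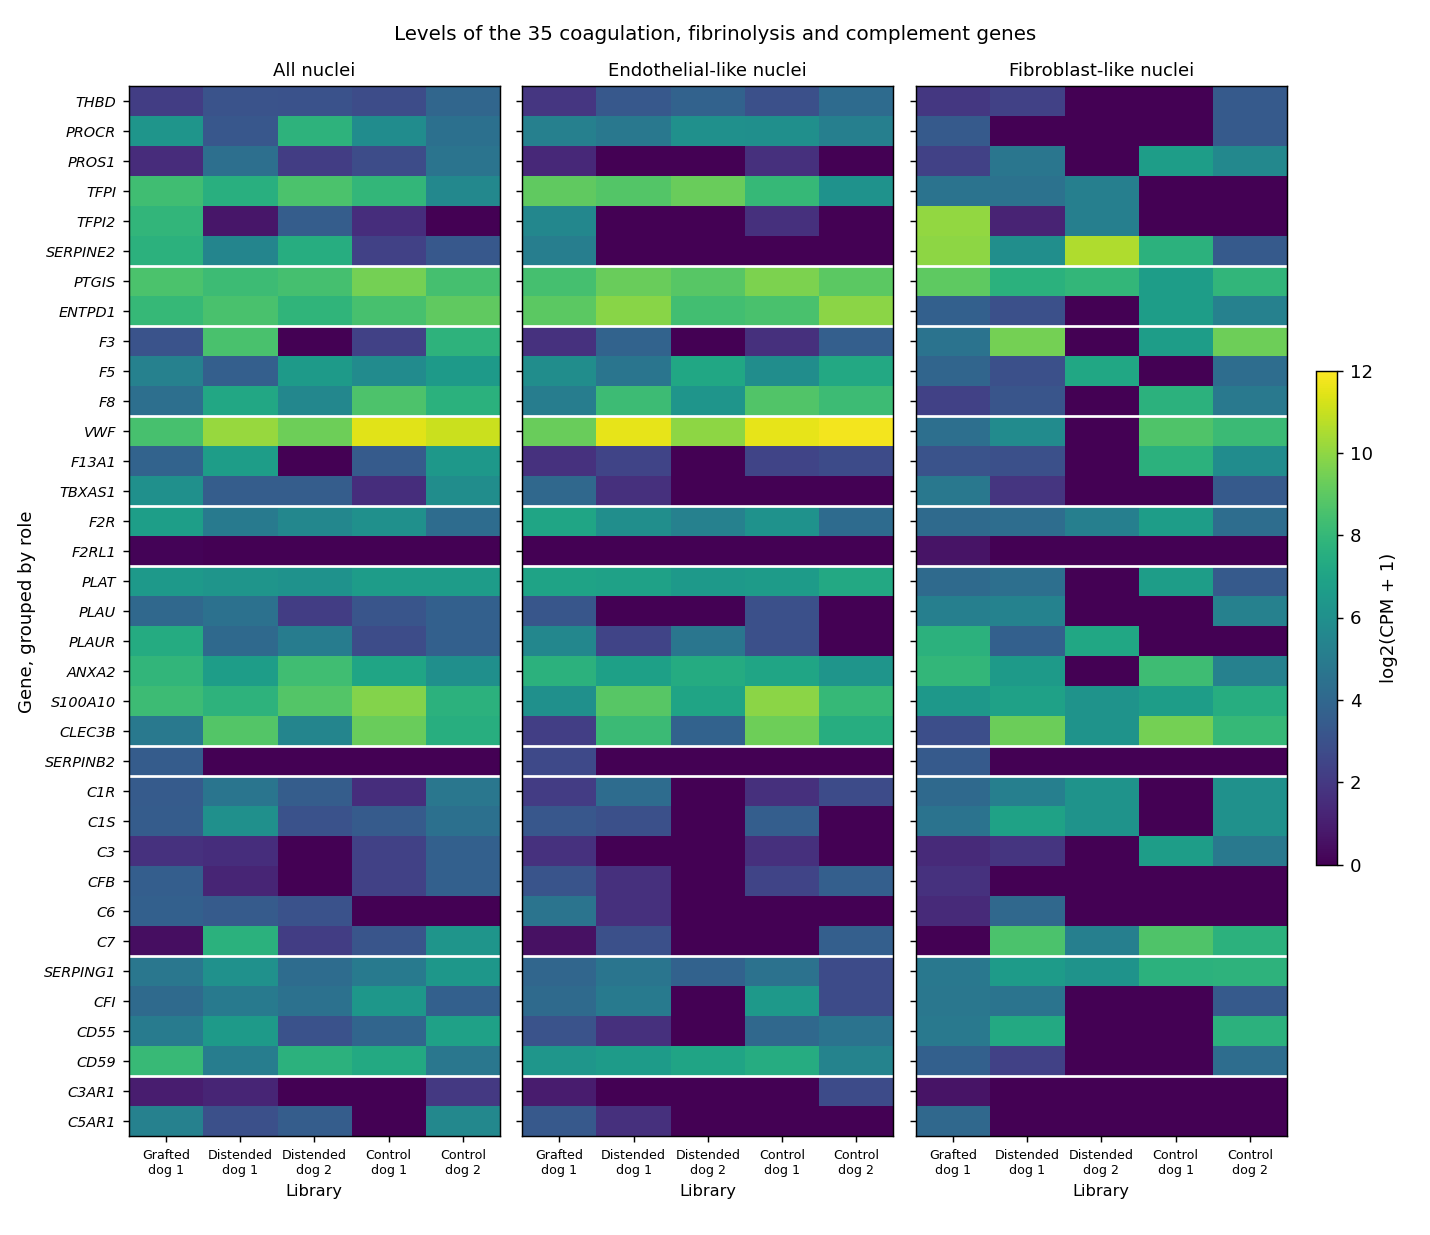
Colour map of the level of each of the 35 genes (rows, grouped by role) in each of the 5 libraries (columns) for all nuclei, endothelial-like nuclei and fibroblast-like nuclei, with colour as log2 of CPM + 1. Among all nuclei, TFPI2 is bright in the graft (237 CPM) and dark elsewhere, while C7 is darkest in the graft (0.367 CPM).

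Among the antithrombotic genes, 2 protease inhibitors were high in the graft and mostly in fibroblast-like nuclei. TFPI2, a Kunitz-type inhibitor of plasmin and of the factor VIIa-tissue factor complex that is secreted into matrix, had 2585 UMIs in the graft, 1 and 3 UMIs in the distended veins and 1 and 0 UMIs in the control veins (dog 1, then dog 2, here and below). In whole vein that is a pooled ratio of graft to control of 199 (95% interval 35.7 to 7876, counting error only), or at least 26.9-fold without the control vein of dog 1 and 119 without that of dog 2. The whole-vein fit did not pass against control (unadjusted p = 0.0006, edgeR adjusted p = 0.535) or against distended (unadjusted p = 0.00121, adjusted p = 0.743). Most graft UMIs of TFPI2 (71.6%) lay in fibroblast-like nuclei. In those nuclei its level was 1058 CPM in the graft (1851 UMIs), 1.31 and 35.4 CPM in the distended veins (1 UMI each) and 0 CPM in both control veins. The graft thus lay above all other libraries. With 3 UMIs as the floor over the control group, TFPI2 was at least 41.0-fold higher in the graft than in control fibroblast-like nuclei, and the pooled ratio to distended nuclei was 419 (95% interval 116 to 3461, counting error only). TFPI2 rose in graft fibroblast-like nuclei against control (fitted log2 fold change 12.03, SE 2.63, edgeR adjusted p = 0.00261) and against distended (7.87, SE 1.58, adjusted p = 0.00158). The filter on low counts needs enough UMIs in only 1 library, and in this class TFPI2 met it only through the graft. Its p-values here thus describe a gene that its high graft level brought into the test. Both calls lean on 1 library. Without the control vein of dog 2 the bound was 3.42-fold and the fitted log2 fold change 12.31 (adjusted p = 0.743). Without the distended vein of dog 1 the ratio to distended was 29.9 and the adjusted p 1.0, while without that of dog 2 the ratio was 808. With the dog as a block the fitted log2 fold change against control was 15.83 (adjusted p = 0.142). DESeq2 gave 7.87 against control (adjusted p = 0.428) and 6.55 against distended (adjusted p = 0.999).

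The TFPI2 level outside fibroblast-like nuclei was lower. Graft endothelial-like nuclei had 45.4 CPM, 4.29% of the fibroblast-like level, beside 0 UMIs in both distended veins and 1 and 0 UMIs in the control veins. The pooled ratio to control was 28.4 (95% interval 5.04 to 1127), or at least 2.62-fold without the control vein of dog 1, and the graft was at least 8.04-fold above distended, or 1.20-fold without the distended vein of dog 1. The fit gave an unadjusted p of 0.00787 against control (edgeR adjusted p = 0.109) and 0.0027 against distended (adjusted p = 0.117). In this class too, TFPI2 passed the filter on low counts only through the graft. Fibroblast markers reached 28.7% of their fibroblast-like level in the same graft nuclei, and 4.56 to 7.44% in the other 4 libraries. Their part in the endothelial-like values was not tested.

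SERPINE2 encodes protease nexin-1, a serpin that inhibits thrombin, urokinase and plasmin. Whole veins had 208 CPM in the graft, 43.4 and 175 CPM in the distended veins and 4.00 and 8.83 CPM in the control veins. Distended veins of both dogs thus exceeded both control veins, and the graft exceeded all 4. The fit gave a log2 fold change of 4.91 for graft against control (SE 1.06, unadjusted p = 0.00104, edgeR adjusted p = 0.535) and 3.99 for distended against control (SE 0.98, unadjusted p = 0.00251, adjusted p = 1.0). Neither passed the adjusted threshold.

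By class, SERPINE2 was again a gene of fibroblast-like nuclei, which held 75.6% of its graft UMIs. Their level was 980 CPM in the graft, 60.2 and 1521 CPM in the distended veins and 206 and 9.38 CPM in the control veins, the control values resting on 2 UMIs and 1 UMI. The distended vein of dog 2 thus lay above the graft, and that of dog 1 between the control veins. The pooled ratio of graft to control was 38.0 (95% interval 12.97 to 184), which was 4.76 without the control vein of dog 2 and 104 without that of dog 1. The fitted log2 fold change was 4.37 (SE 1.47, unadjusted p = 0.00292, edgeR adjusted p = 0.0887). Distended over control gave a pooled ratio of 4.36 (95% interval 1.44 to 21.5) and a log2 fold change of 3.82 (SE 1.39, unadjusted p = 0.0058, adjusted p = 1.0). That ratio was 59.0 without the distended vein of dog 1, 2.33 without that of dog 2, 11.98 without the control vein of dog 1, and turned to 1.83-fold lower without the control vein of dog 2. Endothelial-like nuclei had 153 SERPINE2 UMIs in the graft (34.6 CPM, 3.53% of the fibroblast-like level) and 0 in the other 4 libraries. That is at least 7.20-fold above control, or 1.99-fold without the control vein of dog 1, and at least 6.12-fold above distended. Against distended the bound was 0.911 without the distended vein of dog 1, which gives no direction. The unadjusted p was 0.00775 against control (edgeR adjusted p = 0.108) and 0.0108 against distended (adjusted p = 0.246). SERPINE2 passed the filter on low counts in this class only through the graft, where it is high.

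**Figure D3:**
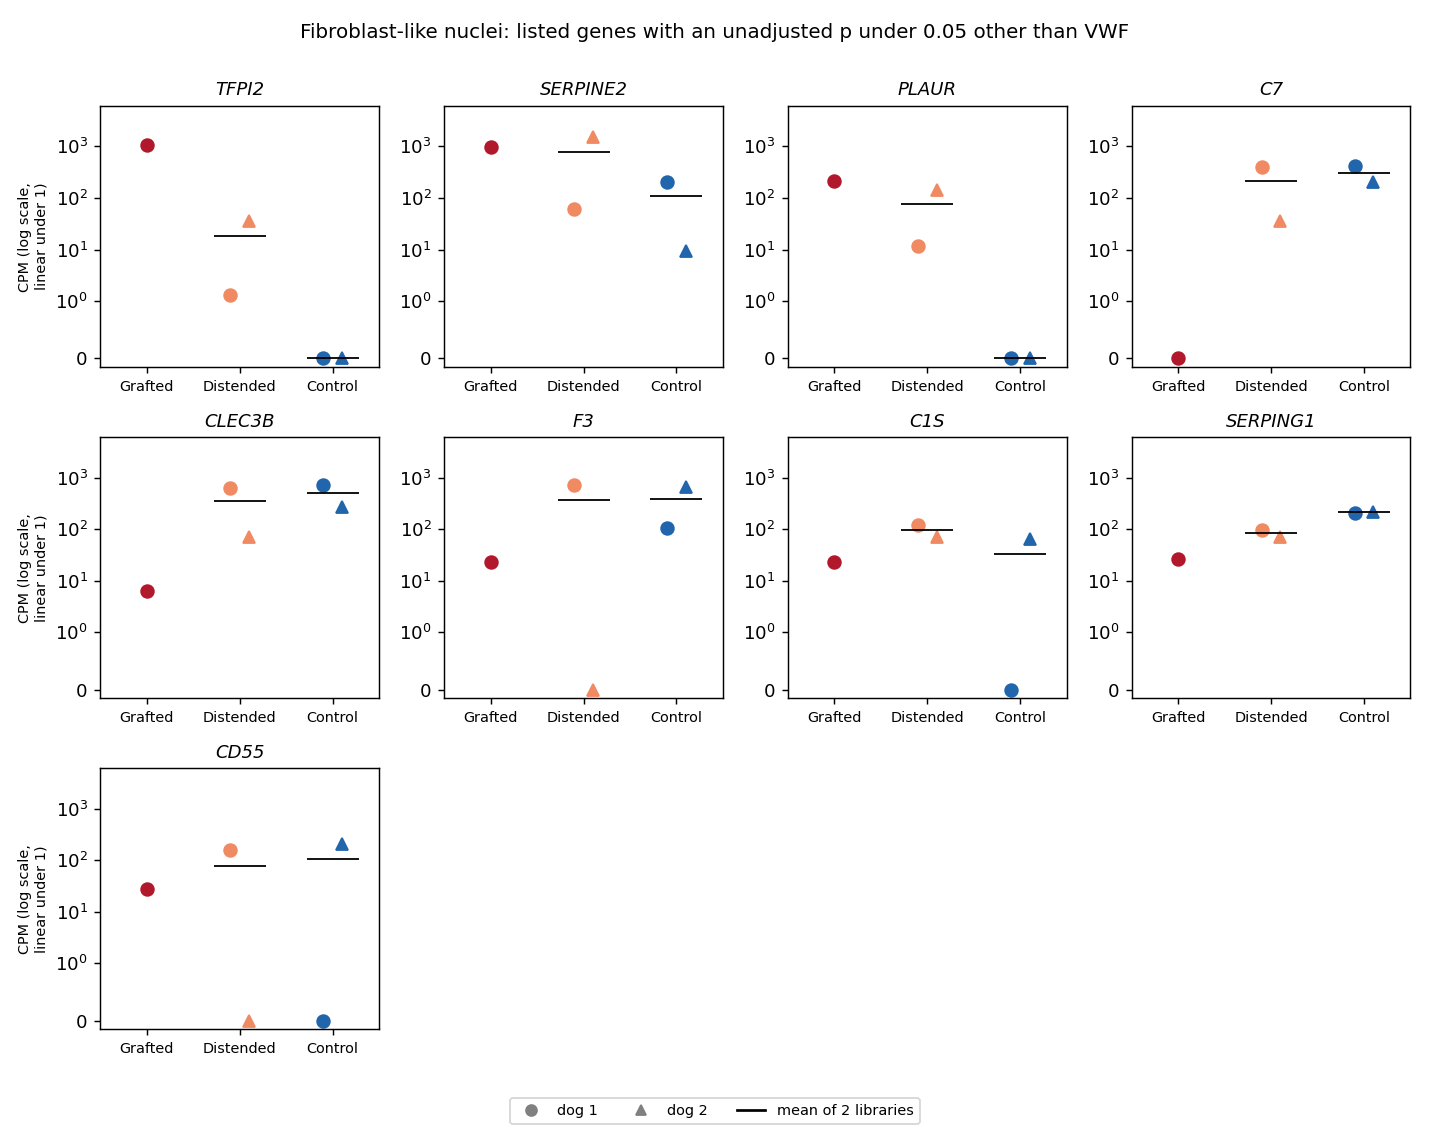
Levels in fibroblast-like nuclei (CPM, logarithmic axis that is linear under 1) of the listed genes with an unadjusted p under 0.05 other than VWF. Each point is 1 library, circles for dog 1 and triangles for dog 2, and lines are means of 2 libraries. TFPI2 stands at 1058 CPM in the graft and at 0 in both control veins, while C7 stands at 0 in the graft and between 35.4 and 412 CPM in the other libraries.

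No endothelial brake on thrombin with enough UMIs to be tested passed a test. TFPI, the Kunitz inhibitor of factor Xa and of the tissue factor complex, had 529 CPM in graft endothelial-like nuclei, 442 and 620 CPM in the distended veins and 261 and 69.4 CPM in the control veins. Distended and grafted levels thus exceeded both controls, but neither contrast reached an unadjusted p of 0.05. PROCR, the endothelial protein C receptor, had 36.6 CPM in the graft, 26.5 and 63.2 CPM in the distended veins and 61.9 and 34.7 CPM in the control veins of these nuclei, with overlapping groups. Most graft PROCR UMIs (634 of 826, 76.8%) lay in the NPPC-led cluster at 199 CPM (exact Poisson 95% interval 184 to 215), and 50 of 61 lay there in the distended vein of dog 2. THBD, thrombomodulin, and PROS1, protein S, were scarce, with 59 UMIs over all libraries for THBD and at most 30 UMIs in a library for PROS1. In endothelial-like nuclei PROS1 had 7 UMIs in the graft, 0 in distended and 1 in control vein, too few to be tested there.

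PTGIS and ENTPD1 restrain platelets. PTGIS, the prostacyclin synthase, had 350 CPM in graft endothelial-like nuclei, 606 and 468 CPM in the distended veins and 783 and 503 CPM in the control veins, so the graft was lowest and the distended and control ranges overlapped. In fibroblast-like nuclei PTGIS had 522 CPM in the graft, 203 and 248 CPM in the distended veins and 103 and 235 CPM in the control veins. The control value of dog 1 rests on 1 UMI. Graft smooth muscle-like nuclei (34 nuclei) had 582 CPM (exact Poisson 95% interval 414 to 796). ENTPD1, the ectonucleotidase CD39, had 507 CPM in graft endothelial-like nuclei, 924 and 329 CPM in the distended veins and 369 and 971 CPM in the control veins. The 2 dogs thus differed as much as the conditions, and no contrast for PTGIS or ENTPD1 reached an unadjusted p of 0.05.

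Among prothrombotic genes, tissue factor was read mostly from fibroblast-like nuclei. F3 encodes the receptor that starts coagulation and is known in vessels as an adventitial protein. In distended vein of dog 1, 558 of 570 F3 UMIs (97.9%) lay in fibroblast-like nuclei, and in control vein of dog 2, 69 of 73 (94.5%). Levels in those nuclei were 22.9 CPM in the graft (40 UMIs), 731 and 0 CPM in the distended veins (558 and 0 UMIs) and 103 and 648 CPM in the control veins (1 and 69 UMIs). Graft lay below both controls and between the distended veins. Against control the log2 fold change was -4.48 (SE 1.496, unadjusted p = 0.00273, edgeR adjusted p = 0.0878), or -1.61 without the control vein of dog 2. Against distended it was -4.45 (SE 1.48, unadjusted p = 0.00272, adjusted p = 0.0796) and it turned to 6.44 without the distended vein of dog 1, so no direction holds there. The value of 6.44 is fitted against 0 UMIs and is not a measured fold. Fibroblast markers in these nuclei summed to 5454 CPM in the graft, 21156 and 8667 CPM in the distended veins and 14524 and 17811 CPM in the control veins. Their part in the lower fibroblast-like levels was not tested. Endothelial-like nuclei had at most 13.3 CPM of F3 in any library.

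VWF and F8 are the partners of one plasma complex, in which von Willebrand factor tethers platelets to the wall and carries factor VIII, the cofactor of factor IXa. VWF was the most abundant listed transcript of endothelial-like nuclei, with 609 CPM in the graft, 2984 and 1012 CPM in the distended veins and 3049 and 3595 CPM in the control veins. The graft lay below all 4 others and both distended veins lay below both controls. For graft against control the log2 fold change was -2.64 (SE 1.15, unadjusted p = 0.0254, edgeR adjusted p = 0.205) and did not pass. In whole veins VWF was 362 CPM in the graft, 1128 and 644 CPM in the distended veins and 2787 and 2083 CPM in the control veins, with a log2 fold change of -2.90 (SE 1.24, unadjusted p = 0.0432, adjusted p = 0.559) for graft against control. The NPPC-led cluster held 22.8% of the graft's VWF UMIs at 282 CPM.

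F8 fell in graft endothelial-like nuclei against control (log2 fold change -3.64, SE 1.04, edgeR adjusted p = 0.0303). Its levels there were 33.4 CPM in the graft (148 UMIs), 294 and 75.9 CPM in the distended veins (133 and 6 UMIs) and 433 and 301 CPM in the control veins (196 and 52 UMIs). The graft lay below all 4 other libraries. Against distended the log2 fold change was -2.63 (SE 0.98, unadjusted p = 0.00985, adjusted p = 0.236), or -0.997 without the distended vein of dog 1. The call against control was lost when the NPPC-led cluster was counted as endothelial-like (log2 fold change -4.23, adjusted p = 0.478, with 0 genes called in that fit), when nuclei were classed singly by markers (-3.97, adjusted p = 0.362) and when the BTNL9-led and HBM-led clusters were added (-3.69, adjusted p = 0.0896). It was also lost without the control vein of dog 1 (-3.43, adjusted p = 0.0866) and without the 4 dominant features (-3.51, adjusted p = 0.0597). Whole-vein F8 was 20.0 CPM in the graft, 144 and 46.5 CPM in the distended veins and 402 and 203 CPM in the control veins, with log2 fold changes of -4.06 against control (SE 1.14, unadjusted p = 0.00566, edgeR adjusted p = 0.547) and -2.40 against distended (SE 1.04, unadjusted p = 0.0445, adjusted p = 0.897). Lymphatic endothelial-like nuclei, a known source of factor VIII in mice, had 312 CPM in the graft (exact Poisson 95% interval 216 to 436), 623 CPM in the distended vein of dog 1 (482 to 792) and 590 CPM in the control vein of dog 2 (255 to 1163), from 34, 66 and 8 UMIs. Lymphatic markers in this class summed to 3407, 18550 and 8335 CPM in the same order, so its make-up differed between these libraries. Endothelial markers there summed to 6868, 5624 and 6565 CPM, so in the graft they exceeded the lymphatic ones. At Leiden resolution 1.5 the class split into an MME-led cluster with 76 graft nuclei and an SCN3A-led cluster with 8. The distended vein of dog 1 had 32 and 121 nuclei in them. The part of this make-up in the F8 levels was not tested.

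VWF was also read in fibroblast-like nuclei, at 20.0 CPM in the graft, 55.0 and 0 CPM in the distended veins and 412 and 291 CPM in the control veins. Those are 3.29%, 1.84%, 0%, 13.5% and 8.09% of the endothelial-like level of the same library. Endothelial markers as a list reached 5.63%, 2.72%, 3.10%, 14.7% and 6.58% in the same order of libraries. The fitted differences (log2 fold change -4.14, SE 1.39, edgeR adjusted p = 0.0887 for graft against control, and -2.77, SE 1.07, adjusted p = 1.0 for distended against control) stand beside that unequal endothelial signal, whose part was not tested.

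Other procoagulant genes were found in particular classes. F5, factor V, had 57.6 CPM in graft endothelial-like nuclei, 24.3 and 139 CPM in the distended veins and 57.5 and 150 CPM in the control veins, and dog 2 was the higher of the dogs in both conditions. F13A1, the transglutaminase subunit that cross-links fibrin, had 141 of its 154 UMIs (91.6%) in macrophage/monocyte-like nuclei in the distended vein of dog 1, at 4149 CPM (exact Poisson 95% interval 3493 to 4894, 60 nuclei), and 17 of 28 in the control vein of dog 2. The graft had 1 such nucleus, and 118 of its 143 F13A1 UMIs (82.5%) lay in the leukocyte-marker cluster at 94.8 CPM. TBXAS1, thromboxane synthase, lay in the same cluster, with 554 of 707 graft UMIs (78.4%) and 19 of 20 UMIs in the control vein of dog 2. Its level there was 445 CPM in the graft (exact Poisson 95% interval 409 to 484) and 898 CPM in the control vein of dog 2 (541 to 1402), which were not tested against each other. Neutrophil markers over whole veins summed to 486 CPM in the graft, 66.1 and 247 CPM in the distended veins and 14.0 and 1168 CPM in the control veins, and their part in the whole-vein levels of these genes was not tested.

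Thrombin's own receptor was measured too. F2R, protease-activated receptor 1, had 134 CPM in graft endothelial-like nuclei, 59.7 and 37.9 CPM in the distended veins and 68.5 and 17.3 CPM in the control veins. The graft lay above all 4 others, without reaching an unadjusted p of 0.05 in either contrast. The NPPC-led cluster held a further 39.9% of graft F2R UMIs. F2RL1, protease-activated receptor 2, had 1 UMI in all.

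**Figure D4:**
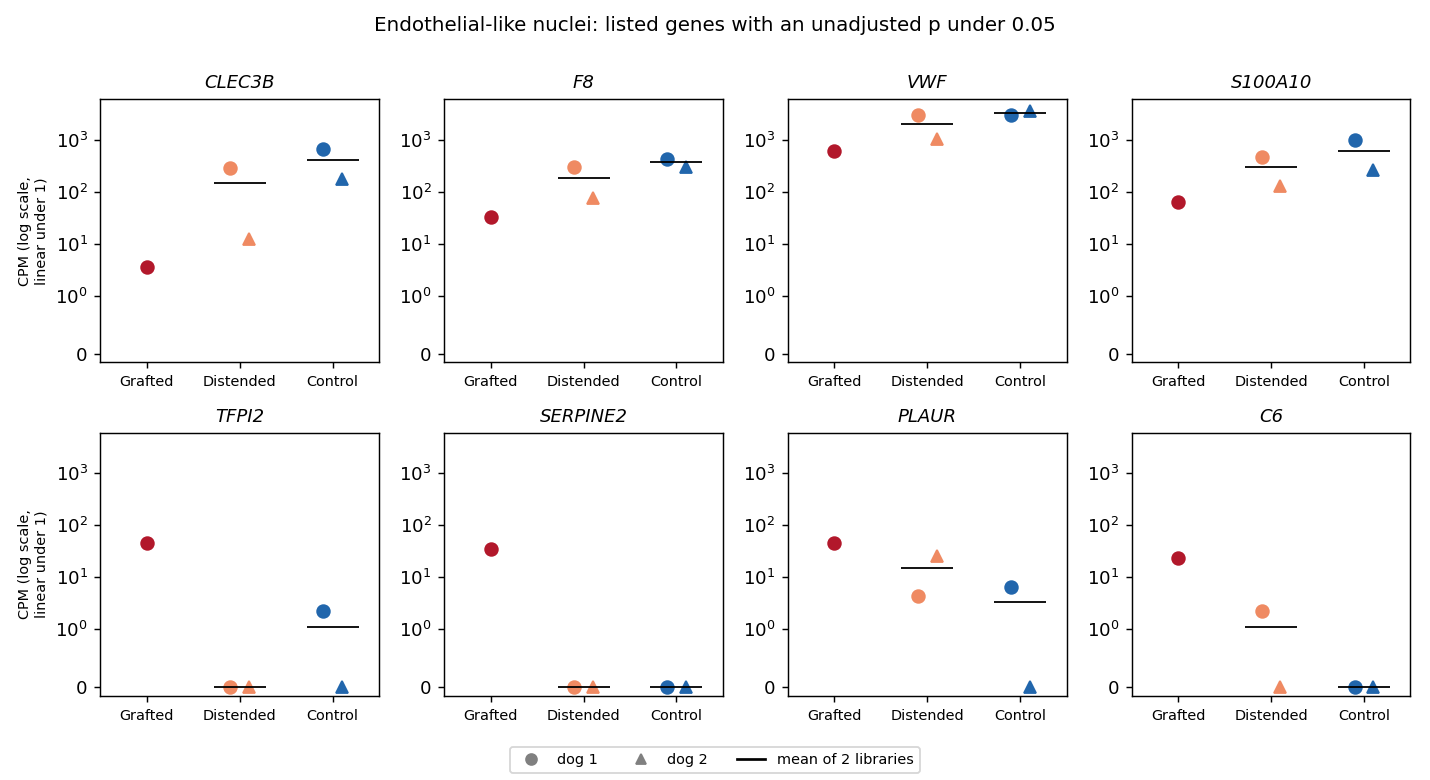
Levels in endothelial-like nuclei (CPM, logarithmic axis that is linear under 1) of the listed genes with an unadjusted p under 0.05. Each point is 1 library, circles for dog 1 and triangles for dog 2, and lines are means of 2 libraries. CLEC3B, F8 and VWF have their lowest point in the graft, at 3.61, 33.4 and 609 CPM.

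Neither plasminogen activator reached an unadjusted p of 0.05 in a contrast. PLAT, tissue-type plasminogen activator, had 124 CPM in graft endothelial-like nuclei, 115 and 88.5 CPM in the distended veins and 95.1 and 150 CPM in the control veins, so the graft lay just above both distended veins and within the control range. PLAU, urokinase, had 35.4 CPM in graft fibroblast-like nuclei, 39.3 and 0 CPM in the distended veins and 0 and 37.5 CPM in the control veins, and the zeros come from the libraries with fewest fibroblast-like UMIs.

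PLAUR, the urokinase receptor, had 168 CPM in the whole graft, 16.0 and 32.2 CPM in the distended veins and 5.99 and 11.8 CPM in the control veins. Grafted exceeded distended, and distended exceeded control, in every library. The log2 fold change was 4.12 for graft against control (SE 0.93, unadjusted p = 0.00151, edgeR adjusted p = 0.544) and 2.80 against distended (SE 0.87, unadjusted p = 0.0097, adjusted p = 0.836). The leukocyte-marker cluster held 1009 of the 1829 graft UMIs (55.2%) at 810 CPM (exact Poisson 95% interval 761 to 862). Fibroblast-like nuclei had 210 CPM in the graft (368 UMIs), 11.8 and 142 CPM in the distended veins (9 and 4 UMIs) and 0 UMIs in both control veins. That is at least 8.15-fold above control (unadjusted p = 0.00132, adjusted p = 0.0563), but the bound was 0.681 without the control vein of dog 2, which gives no direction. Over distended the log2 fold change was 2.42 (SE 1.23, unadjusted p = 0.0486, adjusted p = 0.403), or 0.66 without the distended vein of dog 1. In endothelial-like nuclei the levels were 46.3 CPM in the graft, 4.42 and 25.3 CPM in the distended veins and 6.63 and 0 CPM in the control veins. The pooled ratio of graft to control was 9.65 (95% interval 3.26 to 47.2, unadjusted p = 0.0185, adjusted p = 0.172), or at least 2.67-fold without the control vein of dog 1. Neutrophil markers in fibroblast-like nuclei summed to 266 CPM in the graft, 15.7 and 389 CPM in the distended veins and 0 and 319 CPM in the control veins. Their part in the PLAUR values was not tested.

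CLEC3B, tetranectin, a secreted protein that binds the kringle domains of plasminogen, was low in the graft in both classes. In fibroblast-like nuclei it had 6.29 CPM in the graft (11 UMIs), 634 and 70.8 CPM in the distended veins (484 and 2 UMIs) and 721 and 263 CPM in the control veins (7 and 28 UMIs). The graft lay below all 4 others. CLEC3B fell there against control (log2 fold change -6.05, SE 1.63, edgeR adjusted p = 0.0227) and against distended (-6.17, SE 1.62, adjusted p = 0.0157). The call against control was lost in 7 of 16 alternatives and that against distended in 3 of 16. With the dog as a block the log2 fold changes were -7.28 against control (adjusted p = 0.168) and -6.50 against distended (adjusted p = 0.0703), and without the 4 dominant features they were -5.41 (adjusted p = 0.108) and -5.90 (adjusted p = 0.0797). No filter on low counts gave -5.52 against control (edgeR adjusted p = 0.181), and classing nuclei singly gave -5.28 (adjusted p = 0.053). Against control the value was -5.63 without the control vein of dog 1 (adjusted p = 0.0763), -6.24 without that of dog 2 (adjusted p = 0.321) and -5.85 without the distended vein of dog 2 (adjusted p = 0.0537). Against distended, leaving out the distended vein of dog 1 gave -3.34 (adjusted p = 1.0).

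In endothelial-like nuclei CLEC3B had 3.61 CPM in the graft (16 UMIs), 287 and 12.6 CPM in the distended veins (130 UMIs and 1 UMI) and 654 and 179 CPM in the control veins (296 and 31 UMIs). It fell against control (log2 fold change -6.99, SE 1.37, edgeR adjusted p = 0.000948) and against distended (-5.59, SE 1.28, adjusted p = 0.0129). Leaving out the distended vein of dog 1 ended the second call (-1.60, adjusted p = 0.999). The second call was also lost without the 4 dominant features (log2 fold change -5.52, edgeR adjusted p = 0.0598). Against control the values without the control vein of dog 1 or dog 2 were -5.86 and -7.64. The value also depended on which clusters were counted. In the graft 274 of 305 CLEC3B UMIs (89.8%) lay in the NPPC-led cluster at 85.9 CPM (exact Poisson 95% interval 76.0 to 96.7), and in the control vein of dog 1, 151 of 305 lay in the small CST6-led cluster. With both clusters left out, the log2 fold change was -6.45 against control (adjusted p = 6e-06) and -5.57 against distended (adjusted p = 0.00012). With both counted as endothelial-like the levels were 38.1 CPM in the graft, 287 and 56.3 CPM in the distended veins and 654 and 179 CPM in the control veins, and the differences of -3.57 and -2.29 were not called (adjusted p = 0.50 and 1.0). Classing nuclei singly also ended both calls (-3.84 and -2.22, adjusted p = 0.385 and 0.999), as did adding 2 more clusters with endothelial markers, led by BTNL9 and HBM (-7.01 and -5.33, adjusted p = 0.0747 and 0.233). With the NPPC-led and CST6-led clusters counted, the graft remained below all 4 other libraries. In whole veins CLEC3B was 27.98 CPM in the graft, 443 and 42.9 CPM in the distended veins and 609 and 185 CPM in the control veins (log2 fold change -3.97 against control, SE 1.57, unadjusted p = 0.0312, adjusted p = 0.553).

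S100A10 and ANXA2 form the annexin A2 heterotetramer, a cell surface receptor for plasminogen and its activator. S100A10 depended on the same 2 clusters. In endothelial-like nuclei it had 64.6 CPM in the graft, 473 and 126 CPM in the distended veins and 971 and 260 CPM in the control veins, and 341 of the 439 UMIs in control vein of dog 1 came from the CST6-led cluster. The log2 fold change was -3.43 against control (SE 1.10, unadjusted p = 0.00295, edgeR adjusted p = 0.0624) and -2.35 against distended (SE 1.03, unadjusted p = 0.0275, adjusted p = 0.406). Without both clusters it was -2.21 against control, and with both it was -0.76, since 2709 of 3283 graft UMIs (82.5%) lay in the NPPC-led cluster at 849 CPM (exact Poisson 95% interval 818 to 882). ANXA2 had 207 CPM in graft endothelial-like nuclei, 113 and 164 CPM in the distended veins and 133 and 75.1 CPM in the control veins, with no contrast at an unadjusted p under 0.05. UMIs that ANXA2 might share with near-identical copies elsewhere in the genome could not be told apart here.

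SERPINB2, plasminogen activator inhibitor 2, was read in the graft and in no other library, with 111 UMIs against 0 in both distended and 0 in both control veins. The leukocyte-marker cluster held 60 of them (54.1%). The graft was at least 6.03-fold above distended and at least 2.85-fold above control, with 3 UMIs over the group as the floor. Without the distended vein of dog 1 the first bound was 0.949, which gives no direction. The second was 1.15 without the control vein of dog 1 and 1.70 without that of dog 2.

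Of the terminal complement components, C7 fell in graft fibroblast-like nuclei, while C6 was scarce and passed no adjusted test. C7, which joins the membrane attack complex and anchors it to the membrane, had 0 UMIs in graft fibroblast-like nuclei, 300 and 1 UMIs in the distended veins and 4 and 22 UMIs in the control veins. Those are levels of 0 CPM in the graft, 393 and 35.4 CPM in the distended veins and 412 and 206 CPM in the control veins, and the graft lay below all 4. With 3 UMIs as the floor C7 was at least 130-fold lower than control and at least 222-fold lower than distended. The first value was 120-fold without the control vein of dog 1 and 240-fold without that of dog 2. The 240-fold value rests on 4 control UMIs, whose own counting error it leaves out, so it is no firm lower bound. The fit called both differences (log2 fold change -10.16, SE 2.03, edgeR adjusted p = 0.00198 against control, and -10.22, SE 2.01, adjusted p = 0.00133 against distended). Against control the call stood in all 16 alternatives run, with adjusted p between 0.000434 and 0.049. Against distended it stood in 15 of 16 and was lost without the distended vein of dog 1, where 1 UMI remained (adjusted p = 1.0). Over whole veins C7 was 0.367 CPM in the graft (4 UMIs), 204 and 3.58 CPM in the distended veins and 7.99 and 76.5 CPM in the control veins. The whole-vein log2 fold changes were -6.81 against control (SE 2.39, unadjusted p = 0.0183, edgeR adjusted p = 0.549) and -8.17 against distended (SE 2.52, unadjusted p = 0.0096, adjusted p = 0.836). The fibroblast-like class was itself made of other clusters there. Clusters 2 and 3 held 593 and 618 of the 1212 fibroblast-like nuclei of the distended vein of dog 1, where 98.04% of C7 UMIs were fibroblast-like, and 2 and 0 of the 814 in the graft.

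C6, the component that binds before C7, had 130 UMIs in the graft (11.9 CPM), 15 and 2 UMIs in the distended veins (10.0 and 7.15 CPM) and 0 UMIs in both control veins. In the graft 106 of the 130 (81.5%) were endothelial-like, against 1 of 15 in the distended vein of dog 1, where 12 were fibroblast-like. Whole graft was at least 3.34-fold above control (unadjusted p = 0.0426, edgeR adjusted p = 0.559), or 1.35-fold without the control vein of dog 1 and 1.99-fold without that of dog 2. Whole distended vein was at least 2.68-fold above control (unadjusted p = 0.0491, adjusted p = 1.0), or 1.08-fold and 1.60-fold without those libraries. Graft endothelial-like nuclei were at least 4.99-fold above control (unadjusted p = 0.0257, adjusted p = 0.206), or 1.38-fold without the control vein of dog 1. C6 passed the filter on low counts in those nuclei only through the graft. The pooled ratio of these graft nuclei to distended was 12.7 (95% interval 2.23 to 507), but the bound was 0.631 without the distended vein of dog 1, which gives no direction. In fibroblast-like nuclei C6 was lower in the graft than in distended vein, with 3 UMIs in the graft against 12 and 0 UMIs in the distended veins, a pooled ratio of 8.84-fold lower (95% interval 2.39 to 48.8). All 12 came from the distended vein of dog 1, without which no fold can be given, and the C6 and C7 differences were not tested against each other.

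Early components were low in number. C1S, a protease of the C1 complex, had 22.9 CPM in graft fibroblast-like nuclei, 118 and 70.8 CPM in the distended veins and 0 and 65.7 CPM in the control veins. The log2 fold change against distended was -2.40 (SE 1.19, unadjusted p = 0.045, edgeR adjusted p = 0.387). C1R, its partner protease, had 16.0 CPM in the graft, 35.4 and 70.8 CPM in the distended veins and 0 and 65.7 CPM in the control veins of the same nuclei. The zeros of dog 1 come from 56 control nuclei with 9708 UMIs. C3, the central component, had 2.29 CPM in the whole graft (25 UMIs), 2.00 and 0 CPM in the distended veins (3 and 0 UMIs) and 4.00 and 11.8 CPM in the control veins (2 and 4 UMIs), so the graft lay below both control veins and above both distended veins. In fibroblast-like nuclei C3 had 3 UMIs in the graft, 2 and 0 in the distended veins and 1 and 3 in the control veins. Those few UMIs give a pooled level 20.1-fold lower in the graft than in control (95% interval 3.39 to 137) and 13.6-fold lower in distended than in control (1.95 to 151). Without either control vein no fold of the graft can be given. CFB, factor B of the alternative pathway, had 11.2 CPM in the whole graft (122 UMIs, 72 of them in the NPPC-led cluster), 1.34 and 0 CPM in the distended veins and 4.00 and 11.8 CPM in the control veins, so the graft lay within the control range.

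Of the complement regulators, SERPING1, the C1 inhibitor, had 26.9 CPM in graft fibroblast-like nuclei, 94.3 and 70.8 CPM in the distended veins and 206 and 216 CPM in the control veins. Grafted was below distended and distended below control in every library, but some of these levels rest on few UMIs. The control vein of dog 1 had 2 SERPING1 UMIs among 9708 in this class, and the distended vein of dog 2 had 28268 UMIs in all. The order is thus not firm. The log2 fold change against control was -3.14 (SE 1.32, unadjusted p = 0.0175, edgeR adjusted p = 0.258), or -2.37 without the control vein of dog 2. CD55, decay-accelerating factor, had 27.4 CPM in graft fibroblast-like nuclei, 156 and 0 CPM in the distended veins and 0 and 206 CPM in the control veins. Its log2 fold change against control of -2.71 (SE 1.29, unadjusted p = 0.0357, adjusted p = 0.368) turned to 7.05 without the control vein of dog 2, so no direction holds. The value of 7.05 is fitted against 0 UMIs and is not a measured fold. In the graft 222 of 334 CD55 UMIs (66.5%) lay in the leukocyte-marker cluster. CD59, which blocks assembly of the membrane pore, had 77.5 CPM in graft endothelial-like nuclei, 95.1 and 126 CPM in the distended veins and 172 and 40.5 CPM in the control veins, so the graft lay below both distended veins and within the control range. The NPPC-led cluster held 2490 of 2922 graft CD59 UMIs (85.2%) at 781 CPM (exact Poisson 95% interval 750 to 812) and 48 of 59 in the distended vein of dog 2. CFI, factor I, had 16.7 CPM in graft endothelial-like nuclei, 28.7 and 0 CPM in the distended veins and 88.4 and 5.78 CPM in the control veins.

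C5AR1 and C3AR1 are the receptors of the anaphylatoxins. C5AR1 had 38.2 CPM in the whole graft (416 UMIs), 6.68 and 10.7 CPM in the distended veins (10 and 3 UMIs) and 0 and 47.1 CPM in the control veins (0 and 16 UMIs). The graft lay above both distended veins and within the control range. The leukocyte-marker cluster held 329 of the 416 in the graft (79.1%) and all 16 in the control vein of dog 2. Its level in that cluster was 264 CPM in the graft (exact Poisson 95% interval 236 to 294) and 756 CPM in the control vein of dog 2 (432 to 1228). C3AR1 was near the limit of detection, with 0.918 CPM in the whole graft (10 UMIs), 1.34 and 0 CPM in the distended veins (2 and 0 UMIs) and 0 and 2.94 CPM in the control veins (0 UMIs and 1 UMI). The groups overlapped.

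Genes outside the list but in the same pathways were read from 4 lists of coagulation, fibrinolysis, complement, and platelet and prostanoid genes, 69 of whose 78 members matched a feature. In endothelial-like nuclei 21 were tested. For graft against control 0 were called higher (2.31% of 10341 genes) and 1 lower (1.77%), and the other contrasts called none. The gene called was PTGS1, cyclooxygenase 1 (log2 fold change -5.08, SE 1.19, edgeR adjusted p = 0.0067). Its level was 10.2 CPM in the graft (45 UMIs), 195 and 0 CPM in the distended veins (88 and 0 UMIs) and 343 and 266 CPM in the control veins (155 and 46 UMIs), so the graft lay below both control veins and between the distended veins. The call was lost when the NPPC-led and CST6-led clusters were both counted as endothelial-like and when nuclei were classed singly, since no gene passed there. Median log2 fold changes of the tested members for graft against control were 0.13 in endothelial-like and 0.78 in fibroblast-like nuclei, beside 0.08 and 0.28 over all genes.

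Leaving out the distended vein of dog 2, whose nuclei shared clusters with the graft, kept the direction of each listed result that uses distended vein. Against distended vein of dog 1 alone, in fibroblast-like nuclei, the log2 fold changes of the graft were 9.15 for TFPI2, -11.26 for C7 and -6.95 for CLEC3B. They were -5.33 for F3, 3.80 for PLAUR and -2.70 for C1S. In endothelial-like nuclei they were -6.43 for CLEC3B, -3.29 for F8 and -3.03 for S100A10. There TFPI2 was at least 6.85-fold and SERPINE2 at least 5.21-fold higher. In whole vein the values were -9.11 for C7, -2.98 for F8 and 3.25 for PLAUR. Calls against distended vein rose across all genes in whole vein and fibroblast-like nuclei in these fits. Adjusted p-values against distended vein are therefore not given for them. For distended against control, SERPINE2 was at 2.82 in whole vein and 0.98 in fibroblast-like nuclei, VWF at -2.19 in fibroblast-like nuclei, and C6 at least 2.81-fold higher in whole vein, all with an adjusted p of 1.0. In these fits the distended vein of dog 1 and the graft are single libraries from the same dog, and the spread comes from the control veins.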

How the data were processed

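The deposited files hold raw UMI counts per gene and barcode in 1 filtered matrix per library. Cell Ranger 7.0.0 produced them, per the submitters' processing notes and the file headers. No coordinates or sequences are printed, because the sources used here do not name a genome build. Before clustering, 523 barcodes with fewer than 100 detected genes were left out. Features that name no gene (24, holding 0.588 to 11.5% of a library's UMIs) entered neither library sizes nor tests.

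Clusters came from scanpy 1.11.5 without the listed genes and the 4 dominant features: counts scaled to 10000 per nucleus, 2000 variable genes, 20 components, 15 neighbours, Leiden resolution 0.8 with 2 iterations. Classes were named from fixed marker lists. Scrublet marked 46 nuclei (0.670%), which stayed in and were removed as an alternative. No removal of doublets before deposit is stated. The clustering was kept out of 4 configurations looked at, for clean classes, after cluster markers and whole-library UMIs had been seen but before values by class, and the others are alternatives. The listed genes, pathway lists and markers were chosen with earlier results of these data known.

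UMIs were summed per library and class where a library held 20 or more of its nuclei, and fitted with edgeR 4.0.16 (limma 3.58.1, R 4.3.3): TMM scaling, filterByExpr, quasi-likelihood F test over all groups, 2-sided, adjustment by Benjamini-Hochberg over all genes, threshold 0.05. SE is the log2 fold change divided by the square root of F. DESeq2 1.42.0 was an alternative, and an adjusted p it left empty was not counted. Printed levels (CPM) are scaled without the 4 dominant features and without TMM, while fold changes come from the fit. Log2 fold changes are printed for listed genes with an unadjusted p under 0.05. Other genes are given by their levels. Where a group has 0 UMIs, a fold is a bound against 3 UMIs over that group, and with 1 to 3 UMIs it is a pooled ratio with an exact interval. Intervals are at 95%, and like the floors they cover counting error alone. The fit was tested on counts simulated with changes in the distended group alone. That test does not cover contrasts with the single graft library.

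The same dog number marks the same animal per the labels. Deviations of same-numbered libraries from their group means correlated at -0.327 in whole vein, -0.0492 in endothelial-like and 0.023 in fibroblast-like nuclei. The dog as a block was an alternative to the unblocked fit. Results of 2 further genes of the pathway lists are not reported here.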

Additional observations from a re-analysis of the deposited data

Results flagged for a closer look

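For 3 genes the distended vein differed from the control vein of the same dog in opposite directions in the 2 main classes, in both dogs. They are 3 of the 15 listed genes with at least 10 UMIs in the distended and control veins of each class (20.0%), beside 608 of all 8039 such genes (7.56%), and the count is too small to read as particular to the list. These differences were not tested, and they are given in CPM as distended minus control. PTGIS was at -176.895 CPM in dog 1 and -34.7976 CPM in dog 2 in endothelial-like nuclei, against 99.9905 and 13.0246 CPM in fibroblast-like nuclei. F5 was at -33.163 and -11.1263 CPM in endothelial-like nuclei, against 6.54833 and 122.734 CPM in fibroblast-like nuclei, where no library of these groups had more than 5 F5 UMIs. SERPING1 was at 2.20949 and 6.86981 CPM in endothelial-like nuclei, against -111.72 and -145.085 CPM in fibroblast-like nuclei. Control fibroblast-like nuclei of dog 1 held 1 PTGIS UMI, 0 F5 UMIs and 2 SERPING1 UMIs, and distended endothelial-like nuclei of dog 2 held 1 SERPING1 UMI.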

How the results depend on the processing

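Of 672 alternative values for the 44 listed-gene results at an unadjusted p under 0.05, 586 kept their direction and side of the adjusted threshold, 55 newly passed it, 29 no longer passed it and 2 changed sign: F3 in fibroblast-like nuclei, graft against distended, without the distended vein of dog 1 (6.44, range -5.33 to 6.44 over libraries left out), and CD55 in fibroblast-like nuclei, graft against control, without the control vein of dog 2 (7.05, range -3.19 to 7.05). In both sign changes the group compared with the graft was left with no UMIs of the gene, so neither is a measured reversal. The counts of genes called were less stable, and the cause was not tested. In what follows they stand in the order graft against control, graft against distended, distended against control.

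In whole vein (0, 0 and 0 genes), leaving out 1 library gave 0 to 652, 0 to 619 and 0 to 219 genes. No filter gave 288, 144 and 11, DESeq2 121, 36 and 1. The dog as a replicate block gave 0, 0 and 0, and exchanging the dog numbers of the distended veins, tried after their opposite deviations were seen, gave 176, 33 and 9. In endothelial-like nuclei (422, 133 and 2 genes), leaving out 1 library gave 221 to 855, 10 to 441 and 0 to 115. DESeq2 gave 141, 32 and 0, clustering with all features 897, 827 and 1, and classing nuclei singly 0, 0 and 0. Adding the BTNL9-led and HBM-led clusters gave 80, 31 and 0, leaving out both clusters of high depth 689, 271 and 12, and counting both 0, 0 and 0. Without the 4 dominant features the last pair of counts was 56 and 0, with no filter distended against control gave 8, with the replicate block 0, at Leiden resolution 0.4 also 0. The gene limit without features that name no gene gave 211 and 4 for the last pair, Leiden to convergence 5 for distended against control, and both together 234 for graft against distended. In fibroblast-like nuclei (149, 189 and 0 genes), leaving out 1 library gave 3 to 162, 1 to 1988 and 0 to 0. Without the dominant features the first pair was 48 and 58, with no filter 18 and 1073, with DESeq2 53 and 30, and with the replicate block graft against control gave 8. Leiden to convergence with the stricter gene limit gave 2 for distended against control. The block changed the call of TFPI2 (adjusted p = 0.142) and CLEC3B (0.168) against control and of CLEC3B (0.0703) against distended in fibroblast-like nuclei, and of no other listed gene called by edgeR.

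DESeq2-type scaling moved the median log2 fold change of all fibroblast-like genes by 0.37 against control and 0.28 against distended, and turned no direction of a listed result. Some settings gave no value: at Leiden resolution 0.4 the endothelial-like class, and with all features the fibroblast-like class, held under 20 graft nuclei, and contrasts with the graft need its 1 library. Graft nuclei took other names there. At resolution 0.4 a cluster with 1017 graft nuclei was named red cell-like. With all features a cluster with 790 graft nuclei, led by LOC111091684 and SV2B as is cluster 12, was named pericyte-like. The class names of graft nuclei thus depend on the clustering. Depth limits the libraries with least signal, above all fibroblast-like nuclei of the control vein of dog 1 (9708 UMIs) and of the distended vein of dog 2 (28268 UMIs), where 3 UMIs are the least a bound can use.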
